A study of Homo sapiens with 12 samples.

Results

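This account covers 48 genes of ribosome biogenesis in SKBR3 cells, an established breast cancer line with amplified ERBB2, the gene of HER2. They encode RNA polymerase I subunits and initiation factors, the core proteins of the small nucleolar ribonucleoproteins, abundant nucleolar proteins and the assembly factors of both ribosomal subunits. The members were given as a list of names and looked up by symbol. All 48 were found among the 22170 genes of the deposited table, and all 48 passed the filter on low values that left 14179 genes for testing. Cells were given GSK126 and lapatinib together, GSK126 alone, lapatinib alone, or DMSO, with 3 libraries in each of the 4 groups. GSK126, an inhibitor of the histone methyltransferase EZH2, was present at 5 µM for 7 days. Lapatinib, which inhibits the EGFR and HER2 kinases, was present at 100 nM for the last 24 h. Per the labels, the genotype was WT in every group, so no group carries a genetic change that the DMSO cells lack. A single cell line limits the groups as a model.

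Ribosomes are built in the nucleolus, where RNA polymerase I transcribes the long precursor from which the ribosomal RNAs are cut. Box C/D and box H/ACA small nucleolar ribonucleoproteins guide 2′-O-methylation and pseudouridylation of that precursor, and large complexes then fold and cut it and assemble the ribosomal subunits. The output of the pathway follows growth signalling, and MYC, which binds the E-box CACGTG, is a known regulator of many of its genes in growing and cancer cells.

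The promoters of 40 of the 48 members were matched by symbol in RefSeq (GRCh38.p14), as 300 bases running from 250 before to 50 after the annotated start. CACGTG, which reads the same on both strands, was present in at least 1 listed window of 18 of those 40 members (45%), against 12.5% of the 10220 tested genes with a promoter and 7.26% of all 35116 promoters of that length. The windows shown are those of members that return in the results: EBNA1BP2, PWP2, MRTO4 and WDR43, which fell with lapatinib, and GNL3, which did not. Capitals mark the E-box.
EBNA1BP2: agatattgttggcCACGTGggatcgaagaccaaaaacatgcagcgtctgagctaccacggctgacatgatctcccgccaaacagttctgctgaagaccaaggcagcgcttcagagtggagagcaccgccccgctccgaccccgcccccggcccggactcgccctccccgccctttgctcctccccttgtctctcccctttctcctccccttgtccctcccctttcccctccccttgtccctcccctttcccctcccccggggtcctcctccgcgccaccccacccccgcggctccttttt
PWP2: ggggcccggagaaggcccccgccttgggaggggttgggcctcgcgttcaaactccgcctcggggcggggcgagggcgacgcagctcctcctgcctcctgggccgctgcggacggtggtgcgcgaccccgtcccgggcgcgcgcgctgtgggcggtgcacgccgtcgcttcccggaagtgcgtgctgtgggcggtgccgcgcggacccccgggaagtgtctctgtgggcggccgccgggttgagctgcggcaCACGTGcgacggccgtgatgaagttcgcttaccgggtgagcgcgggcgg
MRTO4: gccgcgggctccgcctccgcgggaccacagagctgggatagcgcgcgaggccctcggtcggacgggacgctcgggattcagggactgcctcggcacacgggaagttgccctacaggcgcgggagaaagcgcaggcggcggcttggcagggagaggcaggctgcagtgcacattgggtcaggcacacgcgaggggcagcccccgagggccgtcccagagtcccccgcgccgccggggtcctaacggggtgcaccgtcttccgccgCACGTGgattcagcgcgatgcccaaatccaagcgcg
WDR43: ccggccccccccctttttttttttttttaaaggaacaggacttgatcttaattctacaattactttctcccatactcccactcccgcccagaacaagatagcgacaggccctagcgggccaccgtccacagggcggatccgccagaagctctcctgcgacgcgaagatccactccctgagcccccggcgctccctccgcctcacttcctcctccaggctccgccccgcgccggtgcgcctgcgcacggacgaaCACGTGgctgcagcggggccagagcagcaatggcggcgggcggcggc
GNL3: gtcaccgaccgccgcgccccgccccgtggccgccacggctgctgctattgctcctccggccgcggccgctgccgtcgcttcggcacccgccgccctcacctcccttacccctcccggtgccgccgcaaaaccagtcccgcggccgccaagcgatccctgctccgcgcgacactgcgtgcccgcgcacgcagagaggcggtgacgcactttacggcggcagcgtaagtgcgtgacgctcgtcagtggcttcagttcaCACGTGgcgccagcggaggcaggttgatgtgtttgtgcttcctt
The EBNA1BP2 window is chr1:43172521-43172820 on the minus strand, with the first base of the E-box at position -237 from the start, and it is 1 of 2 listed for that gene. The PWP2 window is chr21:44107149-44107448, the MRTO4 window chr1:19251555-19251854, the WDR43 window chr2:28894417-28894716 and the GNL3 window chr3:52685782-52686081, all on the plus strand. In those 4 the first base of the E-box lies at position 2, 15, 4 and 7 of the transcript, in the order named. For GNL3, too, the window is 1 of 2 listed. Of the 18 members with CACGTG, 13 fell with lapatinib, against 9 of the 22 without and 14.3% of all genes tested. The median log2 changes of the members with and without it were -0.66 and -0.61. The 8 members with no matched promoter (POLR1E, NOP58, NOLC1, RRP12, BOP1, RRP1B, RRS1 and DDX18) are in neither set. All of them fell with lapatinib, so the shares hold for the matched members only. The search also covered CACGCG, found in 13 of the 40 promoters (32.5%, against 22.3% of tested genes), CCGGAAGT, the core of an ETS site, in 11 (27.5%, against 9.45%), and TTTCCCGC, an E2F site, in 1 (2.5%, against 3.25%), each on both strands. A match describes the letters in these windows and does not show binding.

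Values are normalized read counts, that is reads over each library's size factor, with 17.7 to 30.3 M gene reads per library. The first combination library stands apart: at the lowest depth it had reads for 21669 genes, against 15059 to 17338 in the other 11. A log2 change is given ± SE on the log2(value + 1) scale, and a change was called at an adjusted p under 0.05 in limma's moderated test over all genes. Nothing in the labels ties the libraries to separate cultures, so a p-value here reflects the spread among libraries alone, which may be technical. The 6 luminal and HER2-amplicon markers summed to 525891 to 903737 in every library, the 2 blood markers (PTPRC and CD3E) to at most 26.1, reached in the first combination library, and the 3 fibroblast markers to 61.7 to 349.8. The 2 endothelial markers summed to between 740.2 and 1007 with both drugs, 871 to 1532 with GSK126, 56.4 to 81.3 with lapatinib and 111 to 184 with DMSO. Nearly all of this was CDH5, as PECAM1 was at 4.98 or less in every library, and its part in the results was not tested. The libraries were clustered by the composition of their spike-in reads, with the number of compositions set at 3 beforehand. All lapatinib and all DMSO libraries and combination libraries 2 and 3 had 1 composition. GSK126 libraries 2 and 3 and the first combination library had another, and the first GSK126 library was alone in its own. Lapatinib and DMSO libraries are therefore compared within 1 composition, and GSK126 and DMSO libraries are never within 1. In bulk RNA, fewer cells of a type and less RNA per cell cannot be told apart.

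The members together held 0.561% to 0.597% of gene reads with both drugs, 0.706% to 0.883% with GSK126, 0.525% to 0.543% with lapatinib and 0.794% to 0.851% in DMSO libraries. The lapatinib and combination libraries thus lay below every DMSO library, and all 3 GSK126 libraries lay above every library that had received lapatinib.

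**Figure D1:**
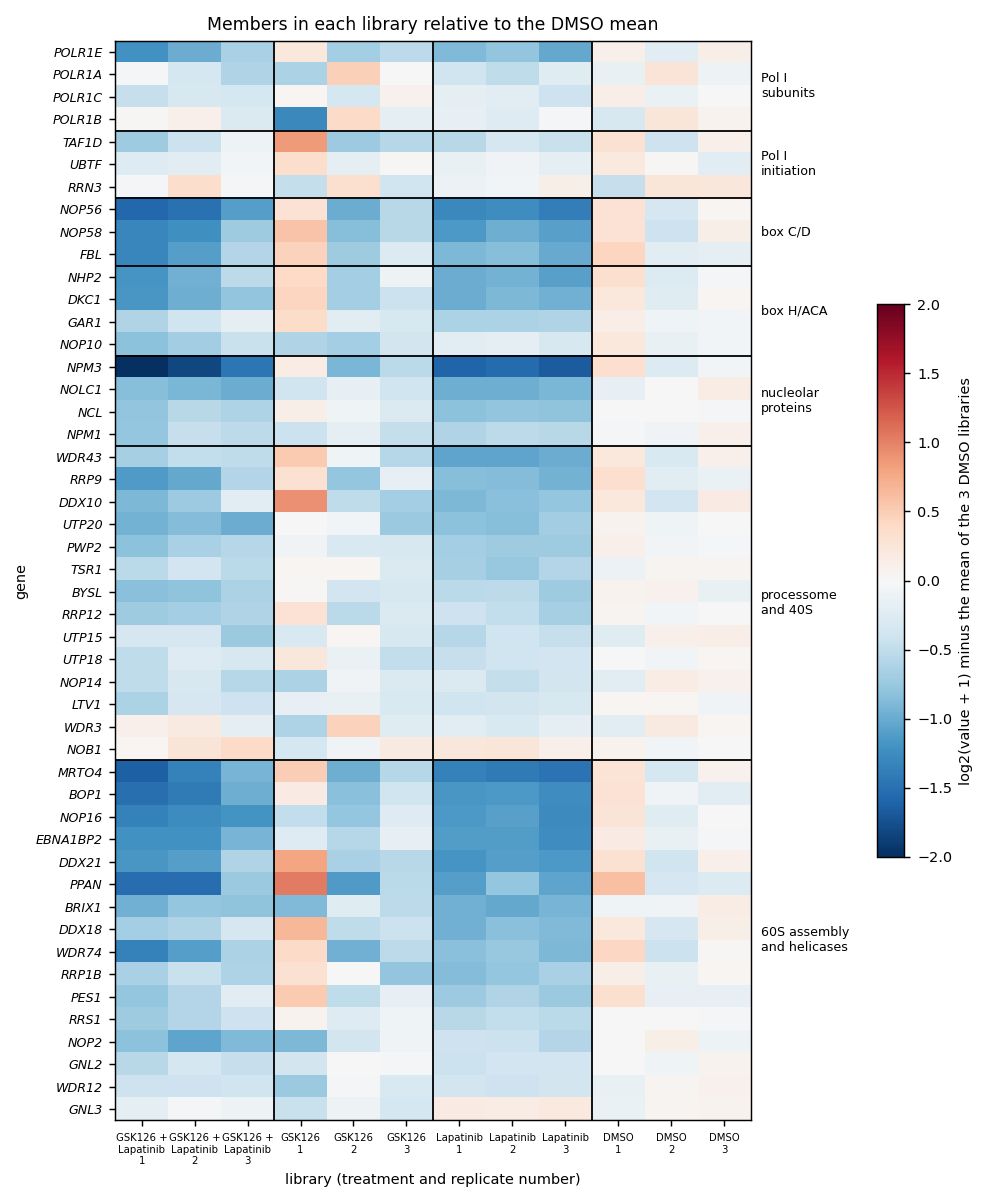
Heat map of the 48 members (rows, grouped by role) in the 12 libraries (columns), coloured by the log2 difference of each value from that gene's mean over the DMSO libraries. Lapatinib and combination columns are lower for most members, with median differences of -0.73 to -0.70 and -0.78 to -0.58 per library, while the first GSK126 library (median 0.10) stands apart from the other GSK126 libraries (-0.33 and -0.32).

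Lapatinib alone was compared with DMSO to ask how the machinery responds to 24 h of HER2 and EGFR inhibition. Of the 48 members, 30 fell and none rose (62.5% called lower, against 14.3% of all genes tested, with 13.7% of all genes called higher). The median log2 change of the members was -0.70, against 0.04 for all genes tested, and single members ran from -1.60 for NPM3 to 0.19 for NOB1. For 10 members, all of them called, the decrease was 2-fold or more. In 41 members every lapatinib library lay below every DMSO library, against 27.2% of all genes, and in 2, NOB1 and GNL3, every lapatinib library lay above, against 28.2% of all genes. By role, all 3 box C/D core proteins, 3 of 4 box H/ACA core proteins and all 4 abundant nucleolar proteins fell, as did 11 of 16 assembly factors of the 60S subunit and 8 of 14 of the small subunit, and 1 of 4 polymerase subunits and none of the 3 initiation factors.

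Among the polymerase I subunits, POLR1E, which with CD3EAP forms a detachable pair of subunits, had 586, 627 and 528 in lapatinib libraries, against 1164, 925 and 1169 in DMSO libraries. The groups did not overlap, and POLR1E fell (log2 change -0.90 ± 0.22, adjusted p = 0.0104). The largest catalytic subunit POLR1A had 874, 813 and 979.7 in lapatinib libraries, against 1039, 1382 and 1074 in DMSO libraries, which did not overlap but missed the threshold (-0.38 ± 0.24, adjusted p = 0.264). The second-largest subunit POLR1B (-0.15 ± 0.32, adjusted p = 0.753) and POLR1C, which polymerases I and III share (-0.27 ± 0.15, adjusted p = 0.193), were not called either.

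The initiation factors did not pass the test. UBTF, which binds along the rRNA genes, had 2823, 2979 and 2721 in lapatinib libraries, against 3549, 3163 and 2687 in DMSO libraries (-0.13 ± 0.16, adjusted p = 0.554). RRN3, which couples the polymerase to the promoter-bound factors, had 1074, 1128 and 1262 in lapatinib libraries, against 851, 1377 and 1362 in DMSO libraries (-0.02 ± 0.23, adjusted p = 0.959). The groups overlapped for both genes. TAF1D, a subunit of the promoter factor SL1, also overlapped (-0.45 ± 0.34, adjusted p = 0.35).

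The box C/D core proteins fell together. NOP56, a scaffold protein of the particle, had 6659, 6916 and 6269.7 in lapatinib libraries, against 19999, 12994 and 16709 in DMSO libraries (-1.30 ± 0.27, adjusted p = 0.00349). Its paired scaffold NOP58 had 4382, 4939 and 4571 in lapatinib libraries, against 11927, 7309 and 10516 in DMSO libraries (-1.07 ± 0.31, adjusted p = 0.0208). No lapatinib library reached the lowest DMSO library for either gene, and the lapatinib libraries lay close together while the DMSO libraries were spread. The methyltransferase FBL also fell (-0.92 ± 0.28, adjusted p = 0.0256).

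Of the box H/ACA proteins, the pseudouridine synthase DKC1 had 3967, 4227 and 4062 in lapatinib libraries, against 9132, 6644 and 8064 in DMSO libraries (-0.95 ± 0.23, adjusted p = 0.00966). NHP2, which binds the guide RNA, had 5386, 5538 and 5027 in lapatinib libraries, against 13334, 8839 and 10389 in DMSO libraries (-1.01 ± 0.25, adjusted p = 0.0102). Both genes were lower in every lapatinib library. GAR1 fell by a smaller amount (-0.62 ± 0.18, adjusted p = 0.0196), and NOP10, the smallest protein of the core, was not called: it had 2664, 2698 and 2473 in lapatinib libraries, against 3547, 2779.5 and 2945 in DMSO libraries (-0.24 ± 0.15, adjusted p = 0.25). For NOP10, too, the groups did not overlap.

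All 4 abundant nucleolar proteins and chaperones fell. NPM3, a nucleolar chaperone of the nucleoplasmin family, had 877, 914 and 846 in lapatinib libraries, against 3376, 2196 and 2560.4 in DMSO libraries. Its lapatinib level was 0.33 of the DMSO level (-1.60 ± 0.26, adjusted p = 0.000612), the largest decrease among the members. NOLC1, a chaperone of small nucleolar ribonucleoproteins, had 2392, 2390.4 and 2481 in lapatinib libraries, against 4185, 4748 and 5216 in DMSO libraries (-0.96 ± 0.12, adjusted p = 0.000129). Nucleolin (NCL) had the highest mean read count of the members in DMSO libraries, with 16436, 16708 and 16666 in lapatinib libraries, against 29134, 29135 and 28605 in DMSO libraries (-0.80 ± 0.14, adjusted p = 0.000888). For these genes the libraries of each group lay far from the other group. NPM1 fell as well (-0.56 ± 0.14, adjusted p = 0.00898), and since it has many processed pseudogenes that can share its reads, its value is less certain.

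**Figure D2:**
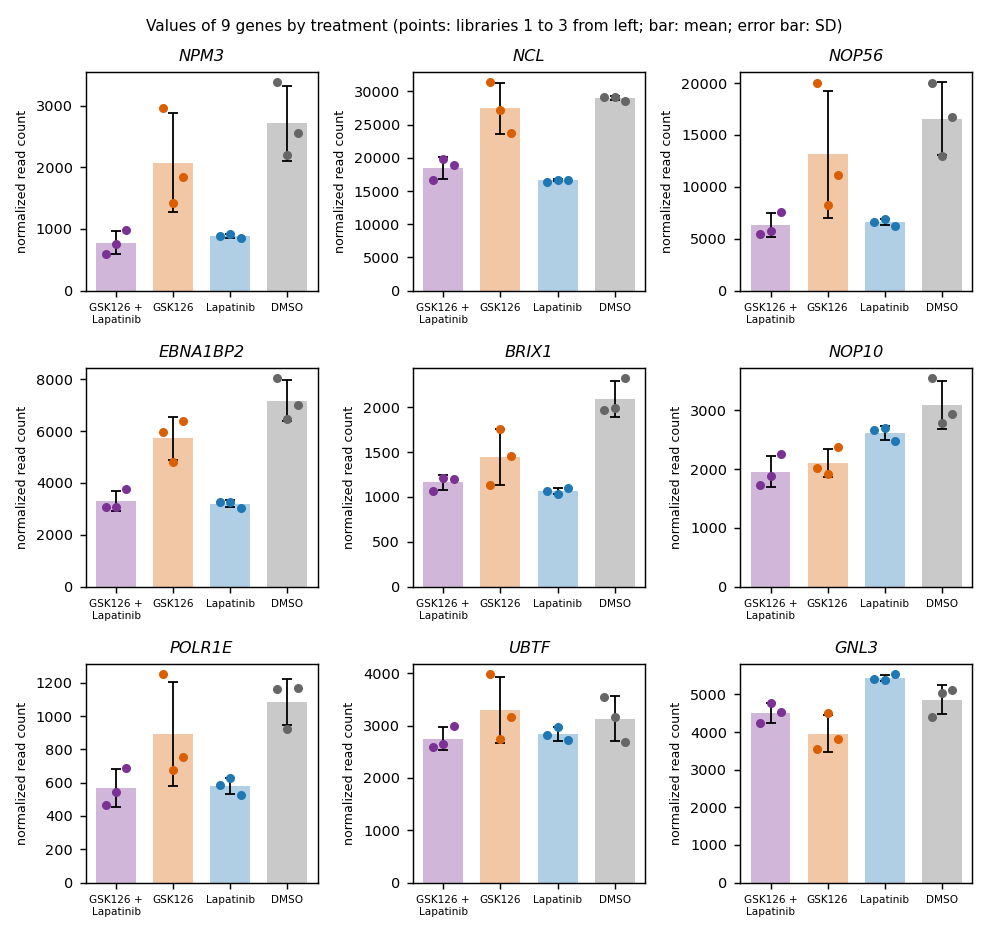
Normalized read counts of 9 members, 1 panel each, with points for libraries 1 to 3 of a group, bars for the group mean and error bars for the SD, for both drugs, GSK126, lapatinib and DMSO from left to right. Lapatinib points lie close together and below the DMSO points for NPM3, NCL, NOP56, EBNA1BP2, BRIX1, NOP10 and POLR1E and above them for GNL3. The first GSK126 library lies high for NPM3, NOP56 and POLR1E but low for BRIX1.

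In the small subunit processome, the complex that folds and first cuts the precursor, and in later 40S maturation, 8 of 14 members fell. PWP2, a scaffold protein of the processome, had 1329.8, 1301 and 1299 in lapatinib libraries, against 2281, 2059 and 2078 in DMSO libraries (-0.71 ± 0.12, adjusted p = 0.00118). TSR1, a GTPase-like factor on the late pre-40S particle, had 1914, 1801 and 2016 in lapatinib libraries, against 2806, 3141 and 3167 in DMSO libraries (-0.67 ± 0.13, adjusted p = 0.00237). The groups did not overlap for either gene. The largest decrease in this role was that of WDR43 (-1.03 ± 0.22, adjusted p = 0.00479), a processome protein needed for precursor transcription, and UTP20, RRP9, BYSL, RRP12 and LTV1 also fell, down to -0.36 for LTV1, which has a late role on the pre-40S particle. UTP15, UTP18, NOP14, DDX10 and WDR3 did not pass, with log2 changes of -0.47, -0.41, -0.37, -0.83 and -0.24 in that order. NOB1, the endonuclease that makes the 3′ end of 18S rRNA, went the other way without passing, with 2100.5, 2125 and 1934 in lapatinib libraries, against 1886, 1720.3 and 1783 in DMSO libraries (0.19 ± 0.15, adjusted p = 0.363).

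Among the 60S factors, EBNA1BP2, needed for 27S precursor processing in yeast, had 3277, 3282 and 3034 in lapatinib libraries, against 8036, 6476 and 6996 in DMSO libraries. It fell to 0.448 of the DMSO level (-1.16 ± 0.15, adjusted p = 0.000101), the smallest adjusted p of the members. NOP16, a nucleolar protein of the early pre-60S particle, had 1553, 1616 and 1424 in lapatinib libraries, against 4109, 2906 and 3419.6 in DMSO libraries (-1.17 ± 0.16, adjusted p = 0.000187). BRIX1, a pre-60S factor, had 1071, 1028 and 1094 in lapatinib libraries, against 1967, 1992 and 2323 in DMSO libraries (-0.97 ± 0.16, adjusted p = 0.000709). In all 3 genes each lapatinib library was below each DMSO library. MRTO4, which holds the place of the ribosomal stalk, fell by a log2 change of -1.41 (adjusted p = 0.00474). In the PeBoW complex of PES1, BOP1 and WDR12, BOP1 (-1.19 ± 0.23, adjusted p = 0.00217) and PES1 (-0.69 ± 0.24, adjusted p = 0.0452) fell and WDR12 did not pass (-0.38 ± 0.17, adjusted p = 0.106). The helicases DDX21 (-1.14 ± 0.32, adjusted p = 0.0189) and DDX18 (-0.89 ± 0.26, adjusted p = 0.023) fell, as did RRP1B, RRS1 and GNL2. GNL3, a nucleolar GTPase known as nucleostemin, had 5408, 5386 and 5536 in lapatinib libraries, against 4409, 5048 and 5111 in DMSO libraries, so that its lapatinib libraries were the higher ones without passing the test (0.17 ± 0.13, adjusted p = 0.346). The related GTPase GNL2 fell (-0.40 ± 0.13, adjusted p = 0.0386). WDR74, NOP2 and PPAN did not pass, with log2 changes of -0.83, -0.48 and -0.98 in that order. PPAN has a read-through transcript with its neighbour, so its reads may be shared.

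Leaving out any 1 library gave 20 to 27 members called lower, with 20 each without the first DMSO library or any one of the lapatinib libraries. In the same fits 1342 to 1821 of all genes were called lower, against 2024 with all libraries, so calls were lost across all genes too. LTV1, RRP12, PES1 and GNL2 were called in none of these 6 fits, and NOP58, FBL, GAR1, RRP9, RRP1B, DDX18 and DDX21 each lost the call in at least 1. Scaling to the spike-in reads gave 11; it moved the median of all genes to -0.49 and that of the members to -1.24, and no member was called higher.

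Genes of the same pathway outside the 48 were taken from lists and read against the same 14.3% background. Of the other RNA polymerase I subunits and factors 7 of 13 fell, of RNA polymerase III subunits 4 of 11, of other small subunit processome factors 13 of 36, of other 60S assembly and export factors 19 of 47, of the snoRNP assembly factors 3 of 9 and of the exosome and rRNA endonucleases 10 of 21. The polymerase I subunit CD3EAP, the partner of POLR1E, had 1107, 1205 and 1171 in lapatinib libraries, against 5121, 2449 and 3344 in DMSO libraries (-1.58 ± 0.42, adjusted p = 0.0137). The polymerase III subunit POLR3G had 119, 95.8 and 113 in lapatinib libraries, against 449.9, 333 and 488 in DMSO libraries (-1.93 ± 0.30, adjusted p = 0.000468). Both were lower in every lapatinib library. LYAR, a nucleolar growth regulator, fell by a log2 change of -2.23 (adjusted p = 0.00193), POP1, a protein of RNases P and MRP, by -1.10 (adjusted p = 0.000544), and the ATPase RUVBL2, which helps assemble box C/D particles, by -1.03 (adjusted p = 0.0059). NVL, an ATPase that releases pre-60S factors, rose (0.70 ± 0.12, adjusted p = 0.00113). Among noncoding hosts of small nucleolar RNAs, 2 of 13 fell and 1, GAS5, rose (0.56 ± 0.20, adjusted p = 0.0498).

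**Figure D3:**
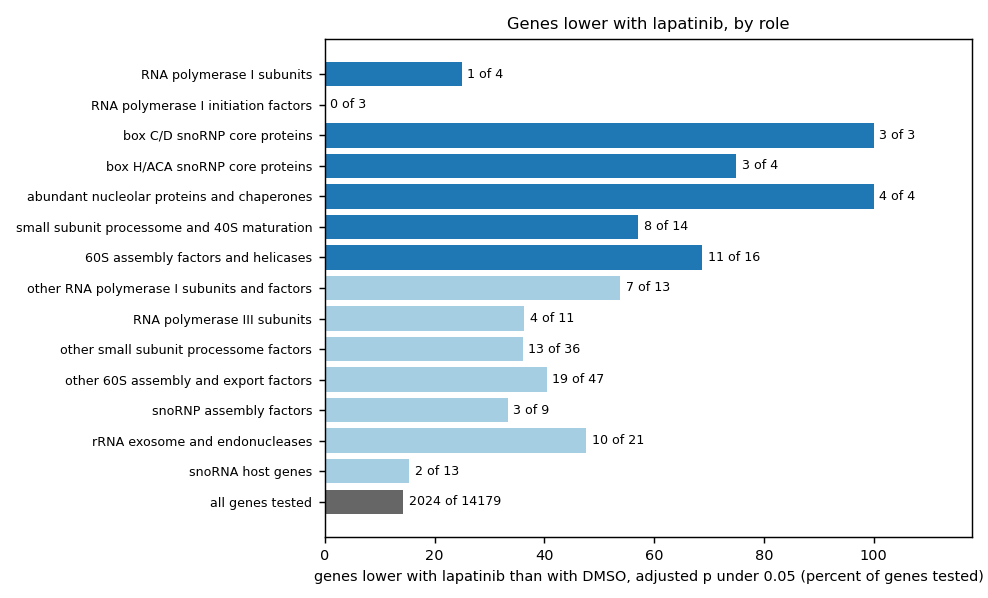
Percent of genes called lower with lapatinib than with DMSO (x axis, limma, adjusted p under 0.05) for the 7 roles of the members (dark bars), 7 lists of other genes of the pathway (light bars) and all genes tested (grey bar), with the counts at the bars. The box C/D core and nucleolar proteins are called in full (3 of 3 and 4 of 4), the initiation factors not at all (0 of 3), and all genes tested stand at 14.3%.

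MYC itself was not called in any comparison, with adjusted p of 0.594 to 1. It had 3075, 2678 and 2928 in lapatinib libraries, against 2617, 4085 and 3235 in DMSO libraries (-0.17 ± 0.41, adjusted p = 0.782), and the groups overlapped. It had 3884, 3688 and 3118 with both drugs, against 1109.5, 4653 and 4277 with GSK126 (0.34 ± 0.41, adjusted p = 0.594), with the first GSK126 library far below the other two. Of 6 tested genes of the list of MYC and its partners, 4 rose with lapatinib and none fell (13.7% of all genes rose). They were the partner MAX (0.52 ± 0.14, adjusted p = 0.0177), MYCL (1.22 ± 0.30, adjusted p = 0.0105) and MXD1 (0.94 ± 0.22, adjusted p = 0.0074) and MXI1 (0.91 ± 0.19, adjusted p = 0.00396), which compete with MYC for MAX. MYCN did not pass the filter on low values.

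Lapatinib was also given on top of GSK126, and these cells were compared with cells given GSK126 alone. The group means of this comparison share no library with those of lapatinib against DMSO. The spread of each gene was estimated over all 12 libraries, so both comparisons use the same SE and their calls are not independent. Here 14 members fell and none rose (9.71% of all genes tested were called lower and 8.48% higher). The median log2 change was -0.48 for the members and 0.04 for all genes. Of the members' changes, 43 of the 48 were below 0, against 6690 of the 14179 genes tested. The 14 were NOP56, DKC1, NCL, NPM3, NOLC1, UTP20, PWP2, BYSL, TSR1, BOP1, NOP16, RRS1, MRTO4 and EBNA1BP2. All 14 were also among the 30 that fell with lapatinib against DMSO, which is every member called here and 46.7% of those called there. The same overlap over all genes is not given here, so this share has no background to be read against. By role they were 1 of 3 box C/D proteins, 1 of 4 box H/ACA proteins, 3 of 4 nucleolar proteins, 4 of 14 small subunit factors and 5 of 16 of the 60S subunit, with no polymerase subunit or initiation factor. Except for MRTO4, every combination library lay below every GSK126 library in these 14.

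**Figure D4:**
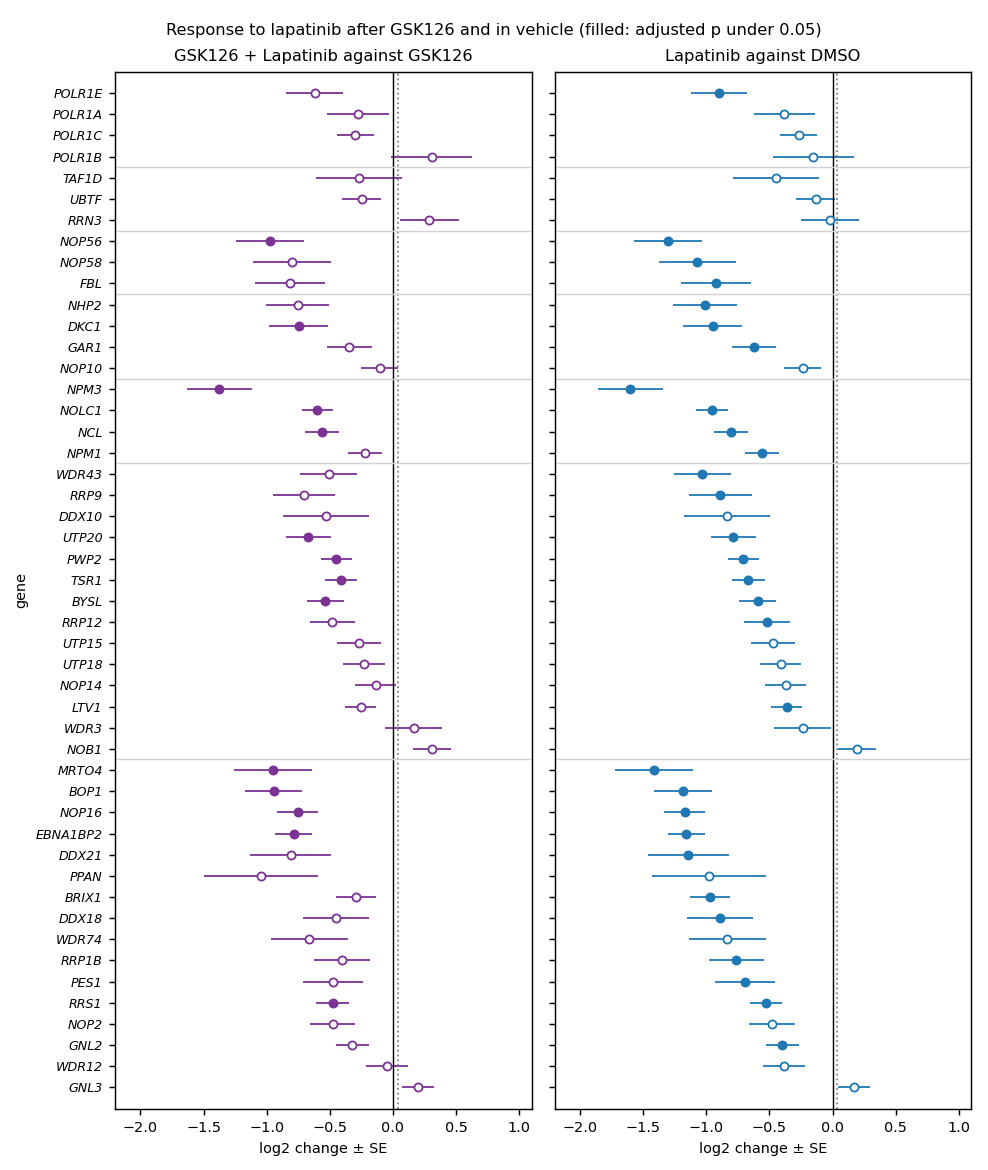
Log2 change ± SE of each member with both drugs against GSK126 (left panel) and with lapatinib against DMSO (right panel), members grouped by role down the page. Filled points passed the test (14 at left, 30 at right, all below 0), the dotted line is the median of all genes tested (0.04 in both), and NOB1 and GNL3 lie above 0 in both panels.

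NPM3 had 599.9, 752 and 976 with both drugs, against 2966, 1414 and 1840.3 with GSK126 (-1.38 ± 0.26, adjusted p = 0.00271). EBNA1BP2 had 3074, 3080.3 and 3765 with both drugs, against 5966, 4798 and 6399.6 with GSK126 (-0.79 ± 0.15, adjusted p = 0.00269). NOLC1 had 2602, 2491 and 2371 with both drugs, against 3583, 4179.8 and 3562 with GSK126 (-0.60 ± 0.12, adjusted p = 0.00561). For these genes no combination library reached a GSK126 library. NCL had 16692, 19782 and 18979 with both drugs, against 31373, 27275 and 23710.4 with GSK126 (-0.56 ± 0.14, adjusted p = 0.0126), and PWP2 had 1213, 1363 and 1433 with both drugs, against 2033, 1726 and 1717 with GSK126 (-0.45 ± 0.12, adjusted p = 0.0256). NOP56 had 5496, 5768 and 7603 with both drugs, against 20029, 8225 and 11109 with GSK126 (-0.97 ± 0.27, adjusted p = 0.0255), and its first GSK126 library was far above the other two. POLR1E had 467, 544 and 691 with both drugs, against 1252, 675 and 753 with GSK126, and did not pass (-0.62 ± 0.22, adjusted p = 0.0749). Among initiation factors RRN3 had 1151, 1484 and 1144 with both drugs, against 838, 1453 and 882 with GSK126, which overlapped (0.29 ± 0.23, adjusted p = 0.417).

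The pathway lists outside the 48 held 2 of 13 polymerase I genes, 2 of 11 polymerase III genes, 4 of 36 small subunit factors, 5 of 47 of the 60S factors, 2 of 9 snoRNP assembly factors and 7 of 21 exosome and endonuclease genes that fell. Read against the 9.71% of all genes called lower, the small subunit and 60S lists are near the background. POLR3G (-1.79 ± 0.30, adjusted p = 0.00124) and CD3EAP (-1.35 ± 0.42, adjusted p = 0.0403) were among them, and NVL rose (0.49 ± 0.12, adjusted p = 0.0162). The count of 14 rested on single libraries: it was 4 without the first combination library (NPM3, NOLC1, NOP16 and EBNA1BP2), 5 without the second combination library and 24 without the second GSK126 library. Calls over all genes moved with it: 864, 823 and 2167 genes were called lower in those 3 fits, in that order, against 1377 with all libraries. The first combination library is the one with reads for the most genes. The count of members was 2 in a fit of only these 2 groups, 5 with the spike-in composition as a term, 23 with DESeq2 and 31 with spike-in scaling. Spike-in scaling moved the median of all genes to -0.99 and of the members to -1.52. Counts over all genes in these fits are not given here.

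Whether lapatinib changed a member by a different amount with and without GSK126 was tested as an interaction. No member passed in limma, edgeR or DESeq2, with 1 at an unadjusted p under 0.05 in limma (0.0212% of all genes tested were called, 0.0141% above 0 and 0.00705% below). The difference of the log2 changes was above 0 for 45 of the 48, against 7452 of the 14179 genes tested. Its median was 0.24 for the members and 0.02 for all genes. For a member that fell, a difference above 0 is a smaller decrease beside GSK126. The members share the same libraries, so their signs are not separate observations. BRIX1 had the largest difference (0.68 ± 0.22, adjusted p = 0.601): its change with lapatinib was -0.30 on top of GSK126 and -0.97 against DMSO. NPM3 differed by 0.23 ± 0.36 (adjusted p = 1) and NCL by 0.24 ± 0.19 (adjusted p = 0.985). With spike-in scaling, which moved the median of all genes to -0.48, the median of the members was -0.27.

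GSK126 alone was compared with DMSO to ask whether EZH2 inhibition by itself touched these genes. Of the members 2 fell and none rose, while 3.93% of all genes tested were called lower and 10.7% higher. The median log2 change was -0.21 for the members and -0.04 for all genes. Of the members' changes, 47 of the 48 were below 0, against 7729 of the 14179 genes tested. In 8 members every GSK126 library lay below every DMSO library, against 9.59% of all genes. NOP10 had 2024, 1911 and 2369.8 in GSK126 libraries, against 3547, 2779.5 and 2945 in DMSO libraries (-0.55 ± 0.15, adjusted p = 0.022). BRIX1 had 1130.3, 1757 and 1455 in GSK126 libraries, against 1967, 1992 and 2323 in DMSO libraries (-0.55 ± 0.16, adjusted p = 0.0335). For both the groups did not overlap. NOP16 was next in size and just outside the threshold, with 2435, 2018 and 2879.8 in GSK126 libraries, against 4109, 2906 and 3419.6 in DMSO libraries (-0.51 ± 0.16, adjusted p = 0.0507). Of the other pathway lists, 1 of 13 polymerase I genes, 1 of 47 of the 60S factors and 3 of 21 exosome and endonuclease genes fell, and none of the 11 polymerase III genes, 36 small subunit factors or 9 snoRNP assembly factors did. This comparison and those of lapatinib and of both drugs share the same DMSO libraries.

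The 2 calls depended on the libraries and the fit. Without the first GSK126 library 13 members were called lower, among them NOP10, NPM3, NOP56, NOP58, DKC1 and POLR1E. Of the members 4 were called without the second GSK126 library, and none was without DMSO library 1 or DMSO library 3. Of all genes, 1330 were called lower without the first GSK126 library, 706 without the second, and 233 and 259 without DMSO libraries 1 and 3, against 557 with all libraries. GSK126 libraries of 1 spike-in composition cannot be set against DMSO libraries of the same one, and with that composition as a term neither gene was called (NOP10 at -0.28 and BRIX1 at -0.21 on the log2 scale). In that fit the first GSK126 library, alone in its composition, carries no weight. The shift of the other GSK126 libraries then rests on the first combination library, so the fit cannot decide the 2 calls.

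Both drugs were compared with lapatinib alone to ask what GSK126 added. No member passed in limma, where 17.9% of all genes tested were called (11.5% higher and 6.35% lower), with 2 members at an unadjusted p under 0.05; edgeR called none and DESeq2 called 1, NOP10. The median log2 change was -0.01, and single members ran from -0.44 for NOP2, a methyltransferase of 28S rRNA, to 0.47 for WDR43. NOP10 had 1731, 1889 and 2258 with both drugs, against 2664, 2698 and 2473 with lapatinib; the combination libraries were all lower, and the change was just outside the threshold (-0.42 ± 0.15, adjusted p = 0.0661). In 6 members every combination library lay above every lapatinib library and in 4 every one lay below, against 23.7% and 23.6% of all genes. Among the members described for lapatinib, the log2 change was 0.15 ± 0.14 for NCL, 0.04 ± 0.12 for NOLC1, 0.04 ± 0.15 for EBNA1BP2 and -0.21 ± 0.26 for NPM3. A fit of only these 2 groups called 5, WDR43 and DDX18 higher and NOP10, NOP2 and GNL3 lower. The count over all genes in that fit is not given here, so the 5 have no background.

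With both drugs against DMSO, 31 members fell and none rose (20.1% of all genes tested were called lower and 22% higher, 42.1% in all), with a median log2 change of -0.64 for the members and 0.06 for all genes. In 39 members every combination library lay below every DMSO library, against 26.8% of all genes. This comparison shares its DMSO libraries with those of the single drugs and its combination libraries with the others, so its calls are not a separate line of evidence. The 3 box C/D proteins, 3 of 4 box H/ACA proteins, all 4 nucleolar proteins, 9 of 14 small subunit factors and 11 of 16 of the 60S subunit fell, with POLR1E as the 1 polymerase subunit. NPM3 changed by -1.81 ± 0.26 (adjusted p = 0.000121), NOP10 by -0.66 ± 0.15 (adjusted p = 0.00308) and EBNA1BP2 by -1.12 ± 0.15 (adjusted p = 6.38e-05).

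The members also varied inside the groups. Their median SD over the 3 libraries, on the log2 scale, was 0.176 with both drugs, 0.420 with GSK126, 0.0668 with lapatinib and 0.198 with DMSO, against 0.203, 0.432, 0.116 and 0.243 for all genes tested in that order. The ratio of the highest to the lowest GSK126 library had a median of 1.75 over the members and ran from 1.12 for LTV1 to 4.53 for PPAN, and it was over 2 for 20 of the 48. The first GSK126 library was the highest of its group for 28 members and the lowest for 11. The first DMSO library was likewise the highest of its group for 28. The first combination library, which stands apart in genes with reads, was the lowest of its group for 38 of the 48. A link between these was not tested. Counts of this kind over all genes are not given here. MYC, low in the first GSK126 library, did not follow the majority of the members there. MALAT1, a nuclear RNA, took 2.34% to 4.29% of gene reads with both drugs, 1.05% to 4.04% with GSK126, 2.18% to 2.67% with lapatinib and 1.29% to 2.09% with DMSO, and its part in these results was not tested.

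**Figure D5:**
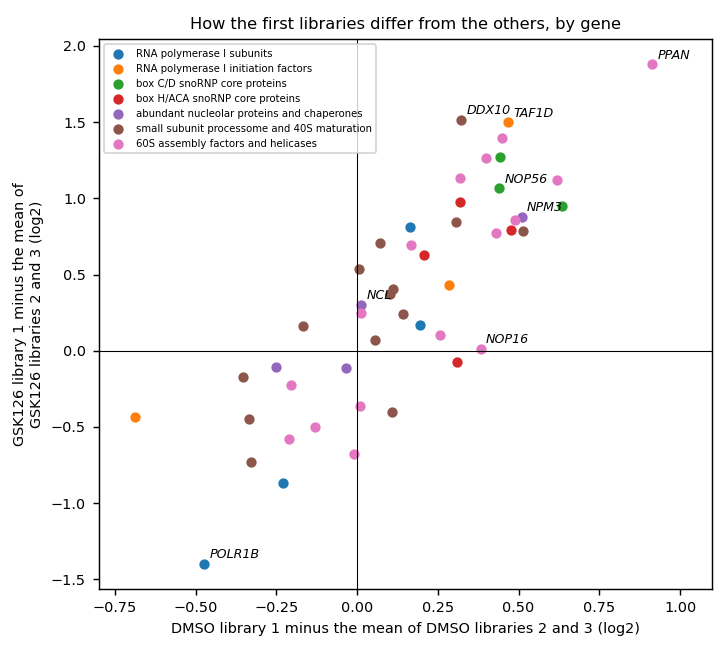
For each of the 48 members (points), the log2 difference of the first DMSO library from the mean of the other two DMSO libraries (x axis) and the same difference for the first GSK126 library (y axis). The points run from members low in both first libraries to members high in both, with PPAN at the upper end.

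Across the 48 members the deviations of these 2 first libraries had a Pearson's r of 0.83 and a Spearman's rho of 0.85, a description over genes that share each library's preparation. Over all genes tested the r of this pair was 0.31. There the first GSK126 library had an r of 0.44 with combination library 3 and -0.33 with combination library 1. The values with the combination libraries are not given here for the members alone, and the cause of the pattern was not tested. Against log2 exon length the r was -0.16 for the GSK126 library's deviation, -0.34 for the DMSO library's and 0.17 for the change with lapatinib. Exon length here merges the exons of all annotated transcripts of a gene. Its part in the deviations was not tested.

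Per kilobase of annotated exon, the members spanned from 7188 for NHP2 to 85.3 for UTP15 in DMSO libraries. The merged exon length can exceed that of the transcript present, so the order of the members is approximate. NPM1 (6400), FBL (5904), NOP10 (5578), DDX21 (4876) and NCL (4179) followed NHP2, and the polymerase subunit POLR1A (86.2) was next to last. On this scale the snoRNP core proteins NHP2, FBL and NOP10 were among the 4 highest.

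Annotated small nucleolar RNA genes lie inside 10 of the 48 members (20.8%), against 1.69% of the 12375 tested genes matched to the annotation. TAF1D holds 8, GNL3 holds 6, NOP56 holds 5 and NOP58 holds 4, and NCL, WDR43, DKC1, TSR1, PPAN and POLR1C hold the rest of the 36, whose reads could be shared with the hosts. Of these hosts 6 of 10 fell with lapatinib, as did 24 of the 38 other members. The 2 hosts with the most small nucleolar RNA genes, TAF1D and GNL3, were not among those that fell, while NOP56 and NOP58, next in number, were.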

How the data were processed

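Messenger RNA was measured in 12 libraries of 4 groups. Per the labels' protocols, an RNeasy Plus kit gave the RNA and a Kapa mRNA HyperPrep kit the libraries. STAR, hg19 and DESeq2 are named in the submitters' processing notes; versions, counter, annotation and strand handling are not given in the sources used here. The deposited signal is reads per gene over the library's size factor, made by the authors. All values (100%) were whole multiples of 1 read within 0.01, so reads were recovered. limma 3.58.1 in R 4.3.3 fitted a mean for each group to log2(value + 1) over all 12 libraries (8 residual degrees of freedom, trended prior), for genes at 10 or more in at least 3 libraries, with Benjamini-Hochberg adjustment over the 14179 genes tested. As count tests, edgeR 4.0.16 called 31, 3, 14, 0, 29 and 0 members, and DESeq2 1.42.0 called 33, 4, 23, 1, 35 and 0, for lapatinib against DMSO, GSK126 against DMSO, both drugs against GSK126, against lapatinib and against DMSO, and the interaction. Counts over all genes in these count tests are not given here. The procedure was tested on simulated data. Exon lengths and small nucleolar RNA genes (GENCODE, not hg19) and promoters (RefSeq) were matched by symbol.

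The members and lists were chosen with earlier results of these data known. Values are given for the members of each role with the smallest adjusted p with lapatinib, the polymerase I genes, members called in any other comparison and members that went against the direction; of other lists up to 4 genes with the smallest adjusted p, and MYC, with some of these left out. GAS5, NVL, MALAT1 and the promoters printed were chosen after their values were seen. So were NOP16, just outside the threshold with GSK126, and NOP2 and WDR43, the extreme changes for both drugs against lapatinib. Alternatives were other pseudocounts (0.5 and 5), filters (none and 50), scalings (TMM, upper quartile, total count, spike-in reads), a constant prior, fits of only the groups compared, with the spike-in composition as a term or with a block for the replicate number, the count tests and leaving out each library.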

Additional observations from a re-analysis of the deposited data

How the results depend on the processing

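The number of members called with lapatinib against DMSO (30) was within 1.5 times of that under each alternative but scaling to the spike-in reads, which gave 11; leaving out 1 library gave 20 to 27. For GSK126 against DMSO (2) the count was 1 with upper quartile scaling, with total count scaling and with a constant prior, 0 with spike-in scaling, with only the groups compared and with the composition term, and 4 with DESeq2, and 0 to 13 leaving out 1 library. For both drugs against GSK126 (14) it was 31 with spike-in scaling, 2 with only the groups compared, 5 with the composition term and 23 with DESeq2, and 4 to 24 leaving out 1 library. For both drugs against lapatinib (0) it was 5 with only the groups compared, 1 with the composition term (NOP2) and 1 with DESeq2 (NOP10), and 0 to 1 leaving out 1 library. For both drugs against DMSO (31) it was 21 to 30 leaving out 1 library, and for the interaction 0 throughout. The members' median for both drugs against lapatinib changed sign to 0.0718 with total count scaling and 0.0683 with the composition term, and lay between -0.0574 and 0.0683 leaving out 1 library, and that of the interaction to -0.27 with spike-in scaling. The causes were not tested. Counts over all genes are given here only for some of the fits that left out a library. Shifts of the members under the other alternatives are therefore not separated from shifts over all genes. Total count scaling moved the median of all genes to 0.20 (lapatinib against DMSO), 0.19 (both drugs against GSK126) and 0.31 (both drugs against DMSO).

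With the replicate number as a block the counts were 29, 2, 13, 0 and 30 for lapatinib, GSK126, both drugs against GSK126, against lapatinib and against DMSO, and 0 for the interaction. Libraries share only a number: the deviations of same-numbered libraries correlated at -0.33 to 0.35, and 4 of 12 libraries correlated best with their own number. In all, 8 members (NOP56, DKC1, NHP2, NPM3, BOP1, NOP16, MRTO4 and EBNA1BP2) fell with lapatinib against DMSO under every alternative run. The same count over all genes is not given here, so the 8 have no background.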
